A study of Mus musculus with 6 samples.

Results

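Chemokines and their receptors were followed in livers, ovaries and uteri of immature mice given fluorene-9-bisphenol (BHPF), a bisphenol used to make plastics, or the vehicle alone. A probe belonged to the family when its transcript carried a symbol beginning with Ccl, Cxcl, Cx3cl, Xcl, Ccr, Cxcr, Cx3cr or Xcr and a number (a single receptor symbol was left out of the rule), and when at least 1 array showed it well above background. Of the 55681 probes on the array, of which 26756 carried a symbol and covered 20280 genes, 62 probes of 52 genes had such a symbol. The filter kept 52 probes of 43 genes, 35 probes of 28 ligand genes and 17 probes of 15 receptor genes. The other 10 probes stayed at background everywhere. They were the only probes for Ccl1, Ccl20, Ccl22, Ccl26, Cxcl2, Cxcl3, Ccr1l1, Ccr4 and Cxcr1 and 1 of the 2 probes for Ccr8. At the edge of the filter, the other Ccr8 probe passed on the control ovary array alone, at −5.90, while Cxcl2 did not pass at −5.39 on the BHPF liver array, where the dimmest probe well above background lay at −4.91.

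The animals were female CD-1 mice labelled as 24 days old, an outbred strain, that received BHPF at 50 mg per kg body weight per day, or peanut oil, by the intragastric route on each of 3 days. Total RNA of 3 mice was pooled per tissue and treatment, and each of the 6 pools (liver, ovary and uterus, control and BHPF) was read on 1 one-colour Agilent array. With 1 array per group there was no replicate and no test of BHPF within a tissue, and precision is limited by how few arrays there were. A single slide and scan held the 6 arrays, control and BHPF at different positions on it, so that position and treatment cannot be told apart.

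Chemokines are small secreted proteins that bind to G protein-coupled receptors on leukocytes and draw these cells along a concentration gradient. Inflammatory chemokines are switched on by cytokines and bring neutrophils, monocytes and effector lymphocytes into a tissue, whereas homeostatic chemokines are made steadily by stromal, endothelial and epithelial cells and place lymphocytes and other cells. In the liver, resident macrophages, sinusoidal endothelium and hepatocytes all produce them, and in the ovary and uterus they direct the leukocytes that take part in follicle and endometrial remodelling.

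A level is the log2 of the background-subtracted intensity minus the 75th percentile of the same array, so 0 is the level of the 75th percentile and levels of different probes cannot be ranked against each other. Between 61.4 and 74.6% of the probes on an array were well above background. A log2 ratio is the BHPF level minus the control level. Spots printed repeatedly on an array gave such a ratio an SD of 0.14 from spot noise alone. Where a probe was well above background on 1 of the arrays of a tissue, its ratio was taken against the other array at its dimmest level well above background (or at the level of the probe there, if higher) and is a bound. In whole tissue, fewer cells of a type and less RNA per cell cannot be told apart.

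The tissue labels were checked against marker genes. Alb, the gene of albumin, stood at 6.07 on the control liver array, at 0.52 on the control ovary array and at −0.92 on the control uterus array. The oocyte gene Bmp15 and the follicle-stimulating hormone receptor gene Fshr were well above background on the ovary arrays alone, and so was the uterine patterning gene Hoxa11 on the uterus arrays. Not all markers were so restricted. On the control arrays, 7 of 10 ovary markers were not well above background in liver and 5 in uterus. Of 8 uterus markers, 5 were not in liver but only 1 in ovary. Levels summed on the linear scale were 57.5 for ovary markers in control ovary (17.6 in liver, 11.1 in uterus). For uterus markers they were 22.3 in control uterus (2.92 in liver, 1.93 in ovary). On the BHPF uterus array, all 12 liver markers were at least 2-fold higher than on the control uterus array, with a median ratio of 3.89, and Alb reached 3.36. Over 15 probes of these markers the excess equalled a median of 6.33% of the control liver level, with a range of 0.41 to 15.6%. The scanner readings and the table of processed values deposited with them disagree on which uterus array is the control. After a constant, 99.1% of the values that the table heads as control uterus were within 0.001 of the scanner readings of the BHPF uterus array, and the reverse held for the other column. The scanner files are used here as labelled, and with the headings of the table every uterine ratio changes sign, so that Cxcl10 stands at −1.22 and Cxcl5 at 1.23, and the liver signal falls on the control array. Which is right cannot be told from these data. For several uterine chemokines with much liver signal, what such a share of the control liver level would add is given beside the measured ratio. What the same share of the BHPF liver level would add was not calculated. It would differ where the liver pools differ, as for Cxcl13 and Cxcl10. No uterine ratio was corrected for it.

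Between BHPF and control, 5 of 46 chemokine and receptor probes evaluated in liver differed by at least 2-fold (10.9%), against 7.09% of all probes evaluated there (6.02% higher, 1.07% lower) and 4.58% of those with a gene symbol (3.1% higher, 1.48% lower). Cxcl13, Cxcl14, Ccr1 and Cx3cr1 were lower and Cxcr6 was higher. In ovary 4 of 49 probes differed (8.16%), against 1.27% of all probes (0.681% higher, 0.593% lower) and 1.16% of those with a symbol (0.498% higher, 0.661% lower), and all 4, Cxcl13, Ccl8, Cxcl17 and Ccl28, were lower. In uterus 2 of 48 probes differed (4.17%), Cxcl10 higher and Cxcl5 lower, against 2.65% of all probes (1.88% higher, 0.773% lower) and 2.9% of those with a symbol (2.09% higher, 0.803% lower). The median ratio of the family was 0.14 in liver beside 0.06 over all probes, but the 50th percentile (−0.15) or quantile normalization (−0.03) turned its sign. It was −0.06 in ovary beside 0.00 over all probes, and −0.04 in uterus beside 0.01. Ratios within 2 SDs of spot noise made up 19 of 46 family probes in liver, 30 of 49 in ovary and 27 of 48 in uterus, beside 21307 of 36579, 32909 of 41676 and 27920 of 38803 over all probes. Between the same uterus arrays, the adipocyte genes Adipoq, Cfd and Fabp4 had ratios of −3.31, −2.71 and −1.46 (6 of 7 evaluated adipocyte markers below 0, summed levels of 5.53 and 3.20), and 5 of 5 erythroid markers were above 0 (median 0.58, summed levels of 18.7 and 25.7). Their part in the uterine values was not tested.

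**Figure D1:**
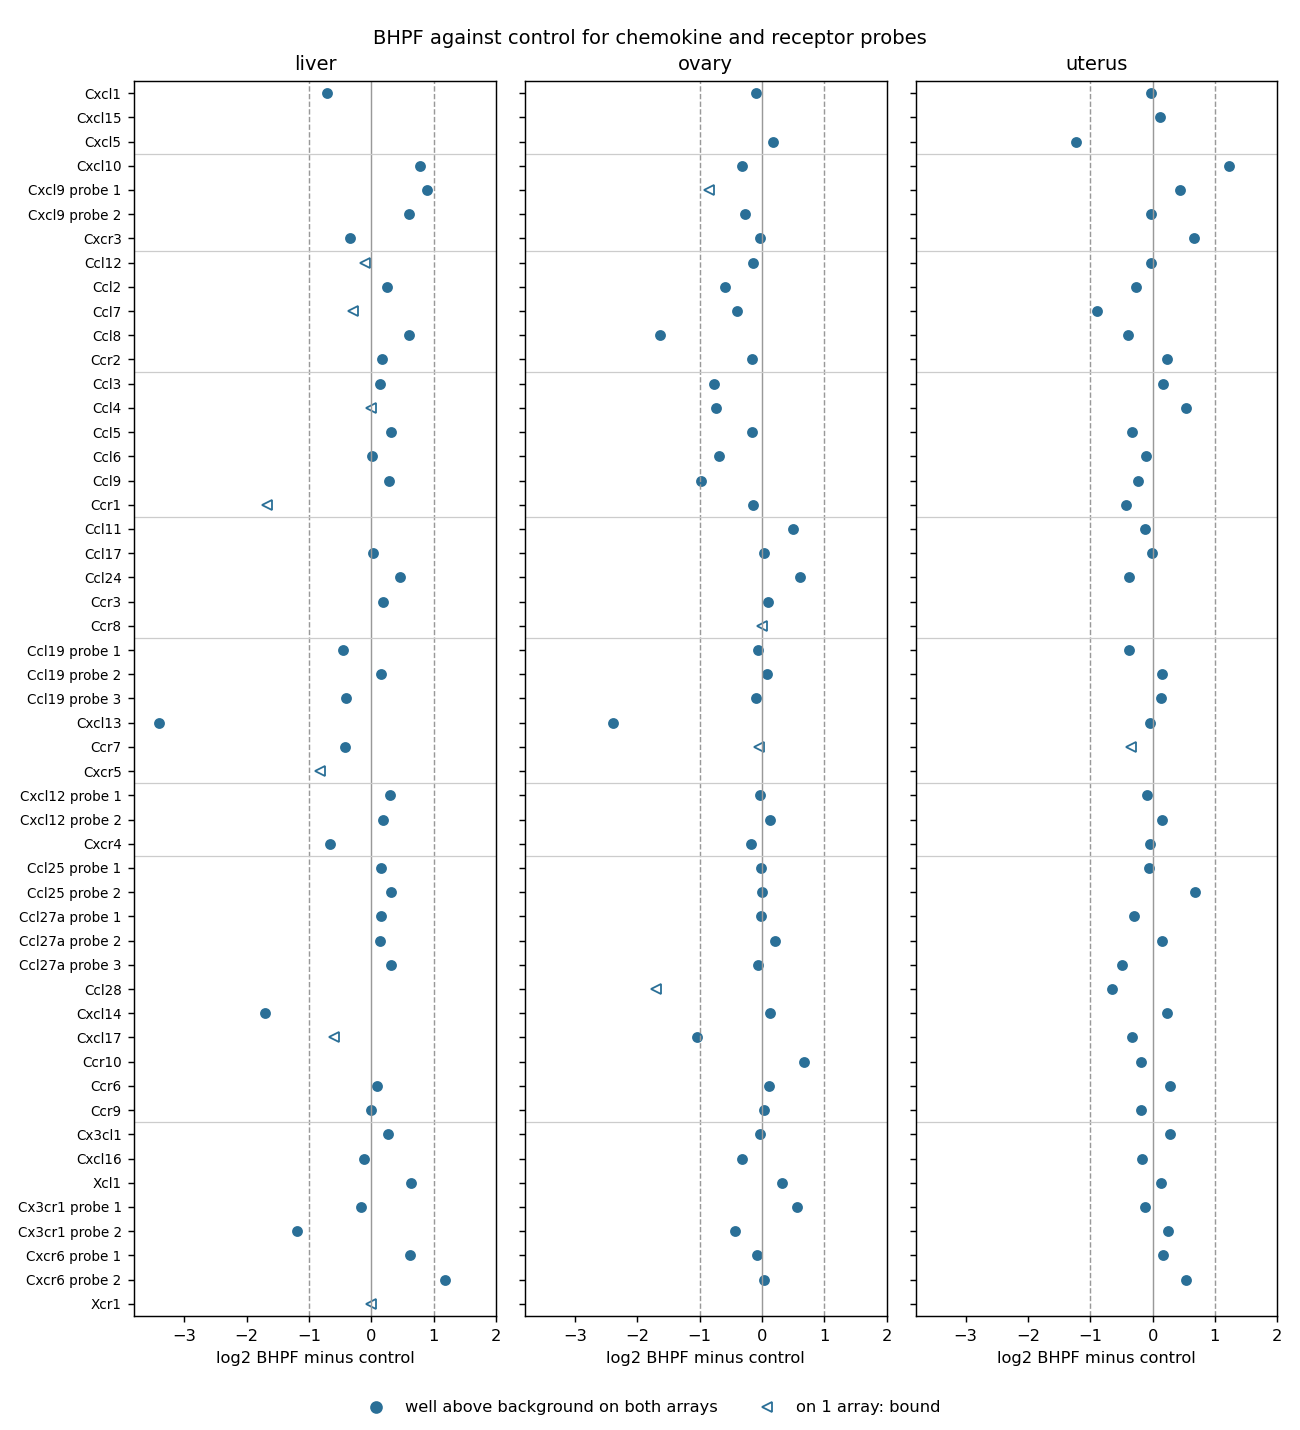
Log2 ratio of BHPF to control (horizontal axis) for 51 of the 52 probes (rows, grouped by role, and numbered where a gene has several probes) in liver, ovary and uterus. Filled circles are probes well above background on both arrays, open triangles are bounds (a triangle at 0 gives no bound), dashed lines mark 2-fold and there are no error bars because each group had 1 array. Among the filled circles Cxcl13 lies farthest to the left, at −3.41 in liver and −2.38 in ovary.

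Cxcl13, the chemokine that brings B cells into follicles, had the lowest ratio of the family in liver, and in ovary the lowest among probes well above background on both arrays. The 250 bases before its start are shown because it was at least 4-fold lower in both tissues. In RefSeq (GRCm38.p6) they lie at chr5:95956689-95956938 on the plus strand, and the capitals mark the letters TATAAA, 46 to 41 bases before the start. These letters were read on the strand of the gene in 32851 promoter windows of this length. They occurred in 8.94% of the 27025 genes with a window and in 9 of the 30 family genes with a window (30.0%).
Cxcl13: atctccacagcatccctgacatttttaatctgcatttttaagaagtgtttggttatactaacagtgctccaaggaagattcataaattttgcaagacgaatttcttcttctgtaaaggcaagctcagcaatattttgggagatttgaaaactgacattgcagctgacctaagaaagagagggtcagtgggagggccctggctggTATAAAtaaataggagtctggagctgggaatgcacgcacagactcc

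The level of Cxcl13 was 3.04 in control liver and −0.37 in BHPF liver, a 10.6-fold lower intensity. In ovary it was −0.17 in the control pool and −2.55 in the BHPF pool, 5.22-fold lower. In uterus it was 1.90 and 1.85, a ratio of −0.05, where the median share of the control liver level would add 0.19. The same share of the lower BHPF liver level would add less. Liver and ovary pools of BHPF mice were thus below their controls, while the uterus pools differed by less than the spot noise. Cxcr5, its receptor on B cells, was well above background on the control liver array alone (−4.08), and its level of −5.30 on the BHPF liver array was below background, which gives a bound of −0.83. The other lymphoid homing genes on the array are Ccl19 and its receptor Ccr7, which guide T cells and dendritic cells to lymph nodes. In liver Ccr7 had a ratio of −0.42, and the 3 probes for Ccl19 gave −0.45, 0.16 and −0.41, so these probes disagreed in direction. In ovary and uterus the means of the Ccl19 probes were −0.03 and −0.03. The uterine ratios were −0.38, 0.15 and 0.13, where the median liver share would add 0.57, 0.25 and 0.40.

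B cell markers stood beside these values. In liver 5 of 8 evaluated markers had a ratio below 0, and 2 passed 2-fold, among them Ms4a1 (−1.13). Cd79a, a defining marker, was not well above background on either liver array. The summed level of the list, on the linear scale with the 75th percentile as 1, was 13.7 in control liver and 14.3 in BHPF liver, and the median ratio was −0.42. Most of that sum came from Cd22, with levels of 3.19 and 3.41. In ovary 6 of 8 were below 0 and Cd79b had a ratio of −1.18 (median −0.30), with summed levels of 8.97 and 8.43. In uterus 6 of 7 were above 0 (median 0.21), with summed levels of 13.3 and 14.9. Their part in the values of Cxcl13 was not tested.

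**Figure D2:**
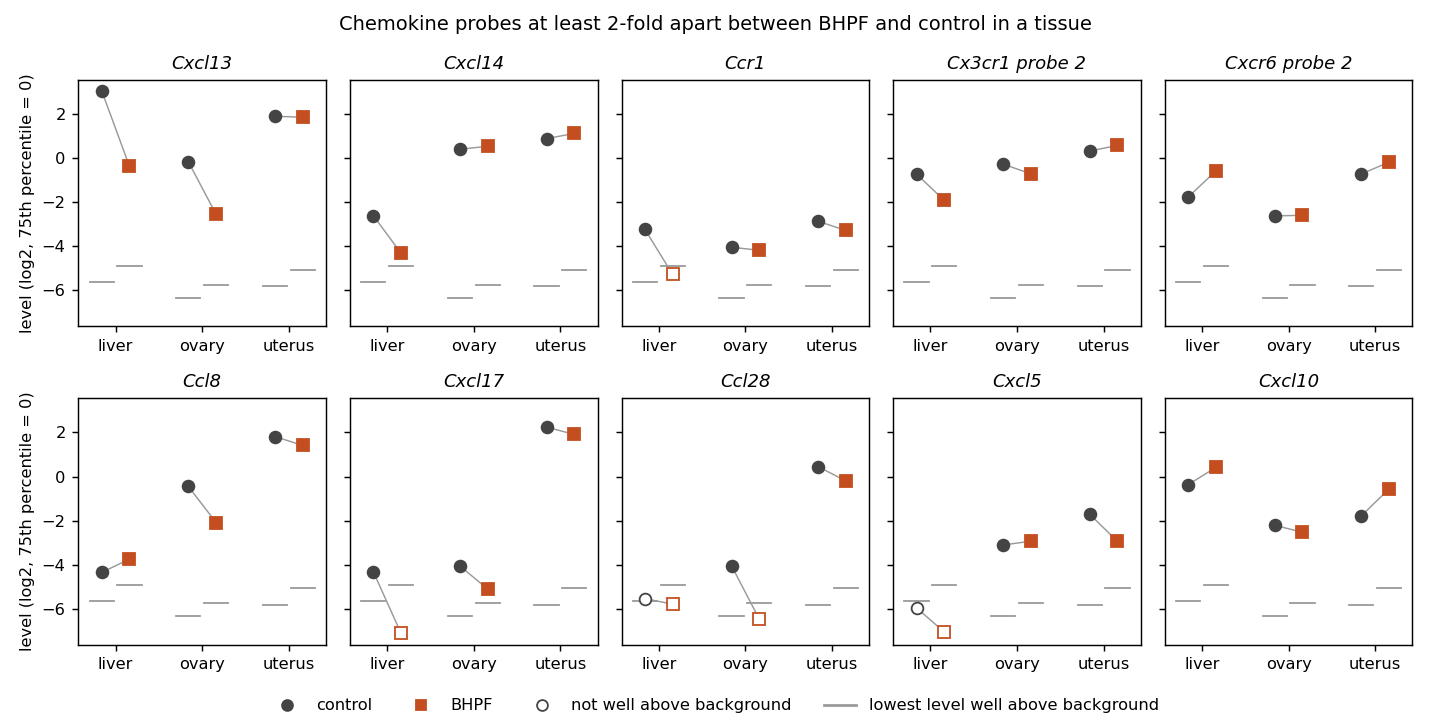
Level (log2, 75th percentile of the array at 0) of the 10 probes at least 2-fold apart between BHPF and control in any tissue, with 1 array per point, control as circles and BHPF as squares. Open symbols are not well above background and short grey lines give the dimmest level well above background on each array. Cxcl13 was lower with BHPF in liver and ovary and nearly level in uterus, at 1.90 and 1.85.

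Among the CXC ligands that attract neutrophils, Cxcl1, Cxcl5 and Cxcl15 passed the filter. Cxcl1 had levels of 2.83 and 2.13 in control and BHPF liver, 0.23 and 0.14 in ovary, and −1.14 and −1.17 in uterus. Only the liver ratio, −0.70, was beyond spot noise, and it was under 2-fold. Cxcl5, an epithelial neutrophil attractant, was not well above background in liver (−5.95 and −7.04). It had levels of −3.10 and −2.93 in ovary and of −1.71 and −2.94 in uterus, where BHPF was 2.34-fold lower. Cxcl15, first described as a lung chemokine, was well above background in uterus alone, at −2.46 and −2.34. Neutrophil markers were lower on all BHPF arrays. In liver the ratio was below 0 for 16 of 16, and past 2-fold for 13 of them (median −2.50), and the summed level was 111 in the control and 40.3 with BHPF. In ovary 13 of 14 were below 0, 9 of them past 2-fold, with summed levels of 16.6 and 12.5, and in uterus 11 of 15 and 7, with 52.6 and 41.4. Csf3r, a defining neutrophil receptor, was 4.28 and 4.12 in liver. S100a8, a calgranulin gene of neutrophils, had ratios of −2.73, −3.13 and −1.52 in liver, ovary and uterus. Their part in the chemokine values was not tested.

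**Figure D3:**
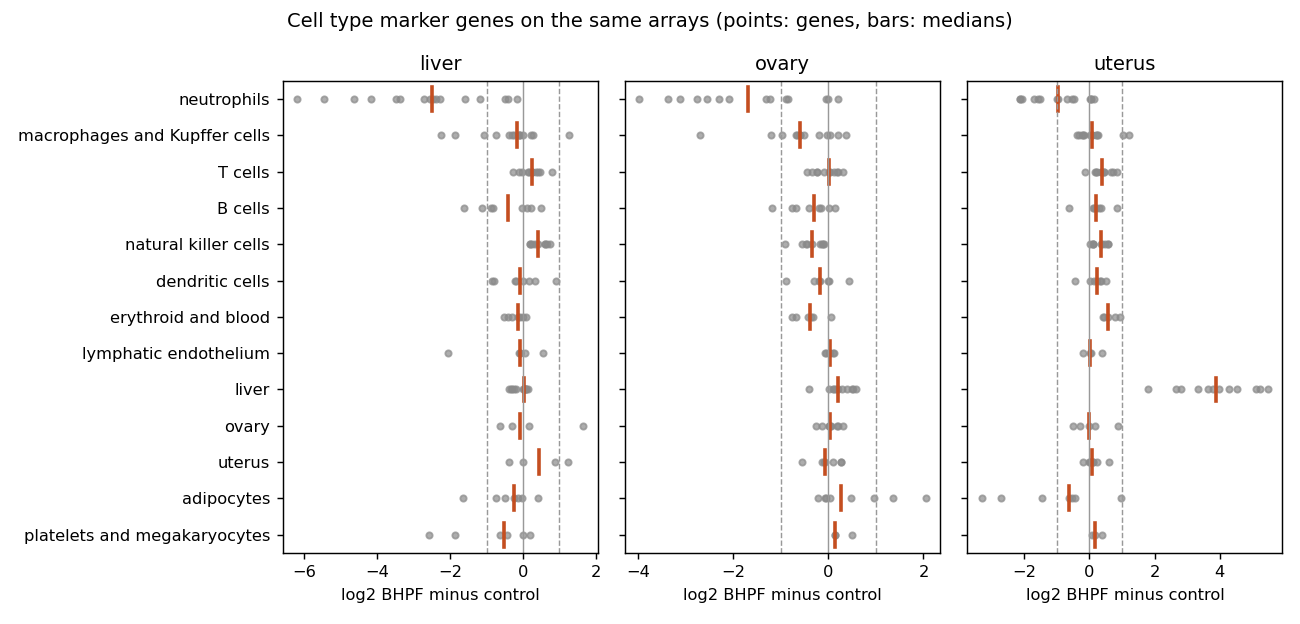
Log2 ratio of BHPF to control (horizontal axis) of single marker genes (grey points) of 13 cell and tissue types (rows) in liver, ovary and uterus, with the median of each list as an orange bar and dashed lines at 2-fold, each ratio from 1 array per group. Neutrophil markers lie to the left in liver (median −2.50) and ovary (−1.70), and liver markers lie to the right in uterus (3.89).

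The CC chemokines grouped here as monocyte-attracting, and Ccr2, all had ratios below 0 in ovary. The 5 genes, Ccl2, Ccl7, Ccl8, Ccl12 and Ccr2, had a median of −0.41 there, beside 0.00 over all probes, and 5 of 5 were below 0 with each scaling tried. Ccl8 had levels of −0.45 in control and −2.08 in BHPF ovary, 3.10-fold lower. In uterus its levels were 1.81 and 1.41, and in liver, where it was dim, −4.34 and −3.74, so the liver ratio of 0.60 ran the other way. Ccl2, the main monocyte attractant, went from −1.62 to −2.22 in ovary, from −1.81 to −1.56 in liver and from −0.97 to −1.24 in uterus. Ccl7 was −3.40 and −3.81 in ovary and −2.02 and −2.90 in uterus, a ratio of −0.89 in the latter. In liver it passed background on the control array alone (−4.62). Ccl12 was −2.43 and −2.58 in ovary, −1.43 and −1.45 in uterus, and well above background in liver on the control array alone (−4.81). Ccr2, the receptor listed in this group, differed little between treatments, with levels of −1.04 and −0.87 in liver, −1.53 and −1.69 in ovary, and 0.42 and 0.65 in uterus.

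The inflammatory CC group around Ccr1 had a similar pattern in ovary, where 7 of 7 evaluated genes were below 0 (median −0.70), and 6 of 7 after normexp background correction. Ccl9, a myeloid attractant, stood at −0.84 and −1.82 in ovary, a ratio of −0.97 just under 2-fold. Ccl3, Ccl4 and Ccl6, whose products draw macrophages and other leukocytes, had ovarian ratios of −0.76, −0.74 and −0.70. Ccl5, a T cell attractant, had a ratio of −0.16. In liver 5 of the 7 were above 0 and 1 was below (median 0.15), but with the 50th percentile as scale 5 were below 0. The exception was Ccr1, the receptor of Ccl3, Ccl5 and Ccl9 on monocytes and neutrophils. It was −3.23 in control liver and −5.28, below background, with BHPF, at least 3.20-fold lower, and the ratio was −1.20 after normexp. In ovary Ccr1 was −4.04 and −4.18, and in uterus −2.86 and −3.28.

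Macrophage markers were lower in the same ovary comparison. Of 13 evaluated, 10 were below 0 (median −0.59), Marco (−2.71) and Adgre1 (−1.20) were at least 2-fold lower, and the summed level was 20.1 in the control and 12.8 with BHPF. In liver 11 of 14 were below 0 (median −0.17), with Cd14 at −2.25, Marco at −1.85 and Adgre1 at −1.08, whereas Cd163 was at 1.27 and the Kupffer cell gene Clec4f at 0.22. Summed levels were 97.2 and 79.0 there. In uterus the median was 0.08, with Clec4f at 1.21 and Vsig4 at 1.04, and summed levels of 23.7 and 22.8. In control liver Clec4f and Vsig4 stood at 3.51 and 2.80, in control uterus at −3.78 and −5.29. The BHPF uterus array also carried the liver signal given above, and what it would add to Clec4f and Vsig4 was not calculated. The part of the macrophage markers in the CC chemokine values was not tested.

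Cxcl9 and Cxcl10 are induced by interferon gamma and draw T cells and natural killer cells through Cxcr3. The promoter window of Cxcl10 is shown because it was the only chemokine at least 2-fold higher in any tissue. In RefSeq (GRCm38.p6) it lies at chr5:92348890-92349139 on the minus strand. The capitals mark the letters GAAANNGAAA, the core of the interferon-stimulated response element, at 213 to 204 bases before the start, and a pair of matches to the kappaB motif at 159 to 150 and 103 to 94 bases, searched on both strands and not overlapping. Among the 27025 genes with a window, the first pattern occurred in 3.46% and the kappaB motif in 4.46%. Of the 30 family genes with a window, 3 had the first pattern (Ccl19, Cxcl10 and Cxcl14). The kappaB motif was in 5 of them (Ccl9, Ccr3, Ccr6, Cxcl1 and Cxcl10). A match is a run of letters and does not show binding.
Cxcl10: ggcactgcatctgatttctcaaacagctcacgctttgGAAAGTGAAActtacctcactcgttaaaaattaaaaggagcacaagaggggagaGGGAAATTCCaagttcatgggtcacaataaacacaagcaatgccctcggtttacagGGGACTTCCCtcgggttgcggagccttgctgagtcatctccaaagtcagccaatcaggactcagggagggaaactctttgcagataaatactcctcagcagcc

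Cxcl10 had a level of −1.78 in control uterus and −0.56 in BHPF uterus, 2.33-fold higher. In liver it was −0.37 and 0.42, a ratio of 0.78, and in ovary −2.21 and −2.52. The BHPF pools were higher in liver and uterus and lower in ovary. At the median share of the control liver level, liver RNA would add 0.22 to the uterine ratio. At the highest share it would add 0.50, beside the measured 1.22. The same shares of the higher BHPF liver level would add more. The probes for Cxcl9 went from 0.86 to 1.76 and from 1.93 to 2.53 in liver. In uterus they were at −4.27 and −3.83, and at −2.07 and −2.09, ratios of 0.44 and −0.02 where the median liver share alone would add 1.69 and 1.01. Ccl9 (0.76 from the share, −0.23 measured) and Cxcl1 (0.995 and −0.03) were likewise below what the share would add. Cxcr3 had a ratio of 0.66 in uterus (−2.60 to −1.94, with 0.10 from the share), −0.34 in liver and −0.04 in ovary. All 3 genes of the group were above 0 in uterus and below 0 in ovary, although normexp put 1 of the 3 above 0 in ovary.

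Other interferon-induced genes did not show the same direction in uterus. Of 17 evaluated, 12 were below 0, with a median of −0.15, and the medians in liver and ovary were −0.08 and −0.09. The antiviral gene Ifit3 was the exception at 2-fold, with a ratio of 1.41 in ovary. Markers of natural killer cells, which make interferon gamma, were above 0 in 9 of 9 in liver (median 0.42) and 9 of 9 in uterus (0.36), and below 0 in 9 of 9 in ovary (−0.35), none by 2-fold. Their summed levels were 3.87 and 4.87 in liver, 2.47 and 2.07 in ovary, and 6.66 and 8.42 in uterus. Ifng itself was dim, at −5.12 and −4.07 in liver, −5.15 and −5.33 in ovary, and −3.81 and −3.56 in uterus. T cell markers had medians of 0.24, 0.02 and 0.39 in these tissues. Whether these cells account for the Cxcl9 and Cxcl10 values was not tested.

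Chemokines of mucosal and skin epithelia gave 3 of the lower values. Cxcl14, made by epithelium and stroma, was −2.61 in control liver and −4.31 in BHPF liver, 3.25-fold lower, and the ratio was −0.99, just under 2-fold, after normexp. In ovary Cxcl14 was at 0.40 and 0.53 and in uterus at 0.88 and 1.11. Cxcl17, a mucosal chemokine, was −4.05 and −5.10 in ovary, 2.07-fold lower, and −0.74 as a ratio after normexp. In uterus it was bright and close between treatments, at 2.24 and 1.91, and in liver it passed background on the control array alone (−4.31, bound −0.60). Ccl28, which attracts antibody-secreting cells to mucosae, was −4.04 in control ovary and below background (−6.46) with BHPF, at least 3.24-fold lower, and the ratio was −1.09 after normexp. In uterus Ccl28 was 0.45 and −0.20, and in liver below background on both arrays. Its receptor Ccr10 was dim, at −5.29 and −4.61 in ovary and −4.54 and −4.73 in uterus. Ccl25, which brings lymphocytes to the gut through Ccr9, had ratios from −0.05 to 0.68 over its probes and the tissues, the last in uterus where the liver share would add 0.57, and Ccr9 from −0.19 to 0.03. Ccr6, the receptor of Ccl20, lay between 0.10 and 0.28, and the 3 probes for Ccl27a, a skin chemokine, between −0.49 and 0.32.

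Among the membrane-bound chemokines and lymphotactin, both probes past 2-fold were receptor probes in liver. Cx3cl1, or fractalkine, was −4.13 and −3.87 in liver, −0.38 and −0.41 in ovary, and −0.28 and 0.01 in uterus. Cx3cr1, its receptor on monocytes and tissue macrophages, was −0.73 in control and −1.91 in BHPF liver by its brighter probe, 2.28-fold lower, with −0.28 and −0.71 in ovary and 0.32 and 0.57 in uterus. Its dimmer probe gave −4.10 and −4.26 in liver, a ratio of −0.16, so the probes disagreed in size, and normexp reduced the first to −0.90. Cxcr6, a receptor of natural killer T cells and resident T cells, was higher in BHPF liver by both probes. They went from −1.77 to −0.58, 2.27-fold, and from −1.21 to −0.58, 1.54-fold, and the first gave a ratio of 0.87 with the 50th percentile. Its ligand Cxcl16 was nearly level, at −0.02 and −0.14 in liver, −0.22 and −0.55 in ovary, and 0.35 and 0.17 in uterus. Xcl1, or lymphotactin, had ratios of 0.64, 0.32 and 0.14 in liver, ovary and uterus, and its receptor Xcr1 was well above background on the control liver array alone.

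The stromal pair and the eosinophil group held no probe past 2-fold. Cxcl12, which retains haematopoietic cells, had ratios from −0.09 to 0.30 over 2 probes and 3 tissues. In uterus these were −0.09 and 0.15, where the median liver share would add 0.27 and 0.12. Its receptor Cxcr4 had a ratio of −0.66 in liver (−2.01 to −2.67), −0.18 in ovary and −0.04 in uterus. Ccl11 and Ccl24, the eotaxins, had ratios of 0.50 and 0.62 in ovary and −0.12 and −0.37 in uterus, and Ccl24 0.47 in liver. To the uterine ratio of Ccl24 the median liver share would add 0.46. Ccr3, the receptor of the eotaxins, had levels of −0.43 and −0.25 in liver. The ratios of Ccl17, a ligand of Ccr4, stayed between −0.01 and 0.03.

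The other genes of the pathway were read from lists. Pf4 and Ppbp, platelet chemokines whose symbols lie outside the family pattern, were lower in BHPF liver, Pf4 at 1.87 and 0.37 and Ppbp at 1.40 and −0.83. Platelet markers in liver had a median of −0.53, with 2 of 6 at least 2-fold lower and summed levels of 1.77 and 0.84. The atypical receptors, which scavenge chemokines without signalling, had ratios between −0.23 and −0.10 in liver, but 4 of these 5 were above 0 after normexp (median 0.06). Of 26 signalling genes evaluated there, 21 were below 0 (median −0.20), 3 were at least 2-fold lower and 1 was higher. After normexp 16 were below 0 and 9 above (median −0.15). Among all evaluated liver probes with a gene symbol, 9629 of 20139 were below 0. Rac2, the GTPase that drives leukocyte movement, had a ratio of −1.19, Pik3r5, a subunit of the PI3 kinase downstream of these receptors, −2.29, Rgs18 a bound of −1.73, and Rgs16, which shortens receptor signals, 1.01. In ovary Rac2 and Pik3r5 were again at least 2-fold lower, at −1.06 and −1.07, and in uterus none of the 28 was past 2-fold.

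Adhesion molecules of leukocytes and endothelium were below 0 for 11 of 13 evaluated genes in liver (median −0.27) and 12 of 14 in ovary (−0.16), and above 0 for 9 of 13 in uterus (0.16). Itgb2, the common chain of the leukocyte integrins, was the only one past 2-fold, at 2.32 and 0.81 in liver. Of the cytokines and receptors that induce chemokines, 17 of 22 were below 0 in liver (median −0.20). Il1b was 1.54 and −0.01 there, a ratio of −1.55, and −2.80 and −3.97 in ovary, a ratio of −1.18. In liver Tlr2 had a ratio of −1.13 and Ifng one of 1.05. In uterus none of 20 evaluated genes was past 2-fold.

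A BHPF effect common to the 3 tissues was tested with limma over 43892 probes, with tissue as a term and 2 residual degrees of freedom. Whether the same mice gave all 3 tissues is not stated, so the fit measures how alike the tissues were rather than the spread between animals. None of the 52 chemokine and receptor probes was called at an adjusted p of 0.05 (0.0% of all probes were, and the lowest adjusted p was 0.768). At an unadjusted p under 0.05 there was 1 of the 52 (1.92%) and 2294 of all probes (5.23%). That probe was Ccl7, named after its value was seen, with a mean ratio of −0.63 (SE 0.14, adjusted p = 0.768 by limma, lower in 3 of 3 tissues). With the uterus arrays exchanged, as the headings of the processed table have them, its mean ratio was −0.03, and again none of the 52 was called (lowest adjusted p 0.953, with 2 of the 52 and 1179 of all probes at an unadjusted p under 0.05). Cxcl13 had a mean ratio of −1.95 (SE 0.72, adjusted p = 0.768 by limma), from ratios of −3.41, −2.38 and −0.05, and −1.92 with the exchange.

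Levels were also compared between tissues. With the control and the BHPF array as the 2 arrays of a tissue and treatment as a term, limma called 32 of 52 probes between liver and ovary (61.5%), 21 higher in liver and 11 higher in ovary, where 34.7% of all probes (16.4% higher in liver, 18.3% in ovary) and 40.4% of those with a symbol (19.9% and 20.6%) were called at an adjusted p of 0.05 and 2-fold. Between liver and uterus it called 32 (61.5%), 15 higher in liver and 17 in uterus, against 32.2% of all probes (14.2% and 18.0%) and 37.5% of those with a symbol (18.2% and 19.3%). Between ovary and uterus it called 16 (30.8%), 4 higher in ovary and 12 in uterus, against 16.1% of all probes (7.18% and 8.97%) and 19.5% of those with a symbol (8.75% and 10.7%). Without 1 of the 4 ovary and uterus arrays that last count fell to between 3 and 6, and Ccl11, Cxcl15 and Xcl1 were called however an array was left out. Cxcl15 had passed the filter through the uterus arrays alone, and 4 of the 52 probes had passed through a single tissue, of which each count above holds 1. Of the 32 calls of each liver comparison, 16 against ovary and 23 against uterus held in every such fit.

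**Figure D4:**
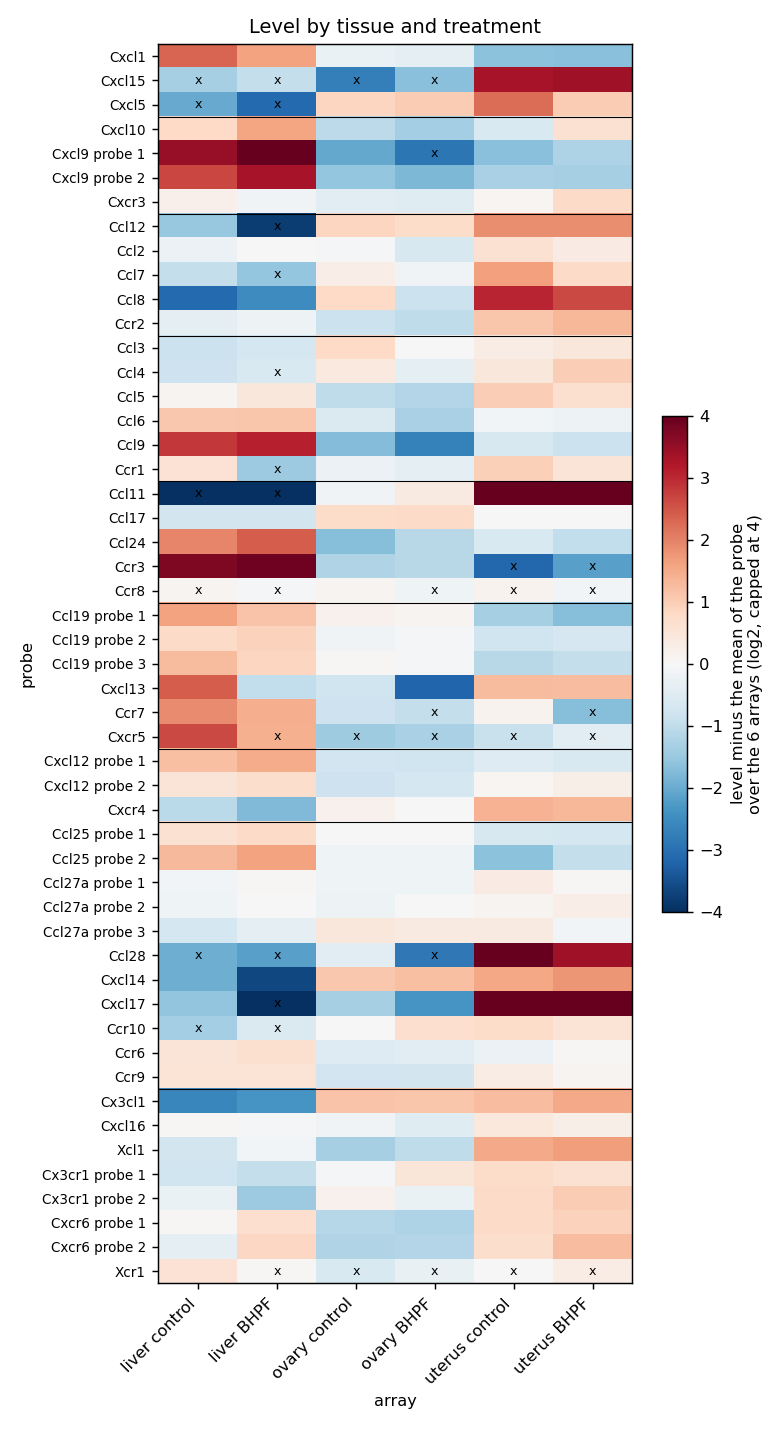
Level of 51 of the 52 probes (rows, grouped by role) on the 6 arrays (columns), shown as the difference from the mean of the probe over the arrays (log2, colours capped at 4), with x where the probe was not well above background. Cxcl9, Ccl9 and Ccr3 are highest in liver, and Cxcl17, Ccl28 and Ccl11 in uterus.

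Liver was above both other tissues at 13 probes of 11 genes. The share of all probes above or below both other tissues was not counted, for liver or for the other tissues. The counts of such probes are therefore not a result about the family. The probes for Cxcl9 differed widely. Its brighter liver probe stood 4.31 above uterus and 4.65 above ovary (limma SE 0.26, adjusted p of 0.00126 and 0.00104), and the other 5.36 and 6.40 (SE 0.47, adjusted p of 0.00269 and 0.00175). Ccr3, the eotaxin receptor, was at −0.43 and −0.25 in liver against −5.36 and −5.27 in ovary, 31.5-fold higher (adjusted p = 0.00101), and at least 34.2-fold higher than in uterus, where it was below background. Ccl24, its ligand, was 1.26 and 1.73 in liver, −2.40 and −1.79 in ovary, and −1.29 and −1.66 in uterus, so that ligand and receptor were both highest in liver. Ccl9 was 3.70 and 3.99 in liver, −0.84 and −1.82 in ovary, and 0.25 and 0.02 in uterus, 36.2-fold above ovary and 13.1-fold above uterus (adjusted p of 0.00141 and 0.00296). Cxcl1, Cxcl12, Ccl6, Ccl19, Ccl25 and Ccr7 were also among them, of which Ccl6, Ccl19 and Ccr7 lost a call in some fit that left out an array. Among the receptors of these ligands, Ccr1 and Cxcr3 were called in no tissue comparison (adjusted p from 0.104 to 0.830). Cxcl13 was not called either (adjusted p of 0.0614, 0.643 and 0.0738), and its pools of 1 tissue lay up to 3.41 apart.

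Liver was below both other tissues at 10 probes. Cxcl14 had a mean level of −3.46 in liver, a difference of −3.93 from ovary and of −4.46 from uterus (limma SE 0.56, adjusted p of 0.00783 and 0.00614). Cx3cl1, at −4.13 and −3.87 in liver, was 12.2-fold higher in ovary and 14.5-fold higher in uterus (adjusted p of 0.000749 and 0.000736). Ccl12 and Ccl8 followed, with means of −5.94 and −4.04 in liver, the former with 1 of 2 arrays well above background. Cxcl14, Ccl12 and Ccl8 each lost a liver call in some fit that left out an array, with differences of the same direction. Cx3cr1, the receptor of Cx3cl1, was lower in liver than in both by its dimmer probe (adjusted p of 0.0229 and 0.00978) and than in uterus alone by the brighter (0.0242). Ccl3, Ccl7, Ccl11, Cxcl5 and Cxcr4 completed the list. Ccl3, Ccl7, Cxcr4 and the dimmer Cx3cr1 probe also lost a liver call in some fit that left out an array. With the 50th percentile or quantile normalization, the dimmer Cx3cr1 probe missed the threshold against ovary (adjusted p of 0.0691 and 0.102 by limma). Ccl3 then missed it against uterus (0.0746 and 0.0908).

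Uterus was above both other tissues at 9 probes. Cxcl17 was 2.24 and 1.91 there, 100.5-fold above ovary (adjusted p = 0.00795) and at least 103-fold above liver (0.00239), where 1 of the 2 arrays was well above background. In tissue folds given as at least, dim levels were raised to the dimmest level well above background. The adjusted p-values beside them come from the limma fit on the levels as read. Ccl28 was at least 32.3-fold above ovary (adjusted p = 0.0104), where it passed background on 1 of 2 arrays, and at least 40.6-fold above liver (0.00379), where it was below background. Ccl11, eotaxin, was 1.43 and 1.31 in uterus and −3.11 and −2.62 in ovary, 18.8-fold apart (adjusted p = 0.00313), and at least 99.2-fold above liver (0.000701). Of the receptors of these ligands, Ccr3 was below background in uterus. Ccr10 had mean levels of −4.95 in ovary and −4.63 in uterus (adjusted p = 0.478), and in liver it was below background, at least 1.25-fold and 1.55-fold under these. Ccl8 was 7.35-fold above ovary (adjusted p = 0.0385) and 50.3-fold above liver (0.00372). Ccr2, listed in the same group, was also highest in uterus, 4.43-fold above ovary (0.00486) and 2.81-fold above liver (0.00432). With the uterus arrays exchanged, Ccl8 missed the threshold against ovary (0.0557). Without 1 uterus array the ovary comparison of Cxcl17, Ccl28, Ccl8 and Ccr2 no longer passed (adjusted p from 0.0549 to 0.214), with differences of the same direction. Cxcl17 also missed it without either ovary array (0.0596 and 0.0526), and Ccl8 without the BHPF one (0.112). The others were Xcl1, Cxcr4, Ccl7 and Cxcl15, of which only Cxcl15 had passed the filter through the uterus arrays alone. Cxcr4 and Ccl7 lost the call against ovary whichever ovary or uterus array was left out. Ccl7 also lost it with the uterus arrays exchanged (adjusted p = 0.149 by limma).

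Uterus was below both other tissues for Ccl19, Cxcl1 and Ccl25. For Ccl25 this held for the dimmer probe, and by the brighter one uterus was 0.67 below ovary, under 2-fold. Cxcl1 was 2.54-fold higher in ovary (adjusted p = 0.0255) and 12.4-fold higher in liver (0.00134). Ccl19 by its brightest liver probe was 1.64 lower in uterus than in ovary (adjusted p = 0.00823) and 2.89 lower than in liver (0.00115), while its receptor Ccr7 was highest in liver. Ovary was below both other tissues for Ccl5, at −0.40 and −0.56 (adjusted p of 0.00911 and 0.0101), and for Cxcr6 by both probes (adjusted p from 0.00778 to 0.0232). Cxcl16, the ligand of Cxcr6, differed by at most 1.56-fold between tissues. Whichever ovary or uterus array was left out, the calls between ovary and uterus of Ccl19, Cxcl1, Ccl25, Ccl5 and Cxcr6 were lost. Differences kept their direction, from 1.16 to 1.53 for Cxcl1 and from −2.12 to −1.71 for Ccl5. Ccl5 and Cxcr6 also lost the call against liver without the BHPF ovary array. With the uterus arrays exchanged, Ccl25 missed the threshold against ovary (adjusted p = 0.0764 by limma). No chemokine or receptor was called above both other tissues in ovary.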

How the data were processed

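RNA of 6 pools was hybridized to one-colour Agilent arrays, scanned and extracted by the authors with Feature Extraction (11.5.1.1 per the file headers, 9.1 in the submitters' processing notes). The intensity used is the processed signal deposited for each spot, already background-subtracted by the scanner software. The authors' deposited table of log2 values, percentile-shift normalized by them, with the percentile and any centring not given in the sources used here (column medians from −1.66 to −1.17), served as an alternative only.

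Spots of a probe were averaged, control spots were left out, and log2 intensity minus the 75th percentile of the array gave the level. Probes were named through RefSeq transcript accessions, which matched 26756 of 55681. Groups came from the sample labels. Tissue differences and a BHPF effect common to the tissues were fitted with limma 3.58.1 in R 4.3.3 (level on tissue and treatment, Benjamini-Hochberg adjustment over all 43892 probes), and a tissue call needed an adjusted p of 0.05 and 2-fold. The samples were not stated to be paired across tissues, and p-values measure only the spread between these arrays. The fits were tested on simulated data.

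Values on every array were given for genes with a probe at least 2-fold apart with BHPF, for the 4 largest differences per tissue and direction, and for receptors of those ligands. Members, gene lists and tests were chosen with earlier results of these data known. Alternatives were normexp correction (offset 50), the 50th percentile, the 75th percentile of probes that every array showed well above background, quantile normalization, other treatments of dim probes, gene means, a 4-fold threshold and leaving out each array. Some genes are not reported here by name or drawn, and counts over lists include them.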

Additional observations from a re-analysis of the deposited data

Results flagged for a closer look

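Ccl8 had opposite signs in liver and ovary, each beyond 2 SDs of spot noise, at 0.60 in liver (−4.34 and −3.74) and −1.63 in ovary (−0.45 and −2.08). Cxcl10 had opposite signs in ovary, at −0.31, and in uterus, at 1.22, with the uterus arrays as labelled in the scanner files. With 1 array per group, neither difference between tissues was tested.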

How the results depend on the processing

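The 5 liver probes at least 2-fold apart with BHPF became 3 with normexp or with gene means, 8 with the authors' table (columns matched to the arrays) or with own values in place of bounds, 11 with no filter on dim probes, and 1 at 4-fold. The 4 in ovary became 7 with no filter and 1 at 4-fold, and the 2 in uterus became 0 at 4-fold. The liver median of 0.14 was −0.15 with the 50th percentile and −0.029 with quantile normalization, where the median of all probes went from 0.06 to −0.22 and −0.01. With the headings of the authors' table, an alternative chosen after seeing the data, Cxcl5 in uterus was 1.23 and Cxcl10 −1.22. Leaving out each array gave 24 to 32 calls between liver and ovary, 25 to 32 between liver and uterus, 3 to 21 between ovary and uterus (6 without the control ovary, 3 without the control uterus, 5 without the BHPF ovary and 3 without the BHPF uterus array), and 0 to 0 for the common effect. In such a fit the lone array of a tissue is assumed to vary like the others. The split of calls between liver and ovary went from 21 and 11 to 14 and 12 with the 75th percentile of probes that every array showed well above background, and between ovary and uterus from 4 and 12 to 2 and 15 with normexp. With each named BHPF ratio counted once per alternative, 65 were unchanged in call and size, 21 moved and 2 reversed. Of the tissue differences, counted in the same way, 811 kept their call and 99 lost it. The cause was not tested. No paired analysis was possible because the groups share a single replicate number, though the fits had tissue as a term. Exchanging the uterus arrays, also chosen after seeing the data, gave 30 calls between liver and ovary, 32 between liver and uterus, 13 between ovary and uterus and 0 for the common effect. Signal near background limits the dim probes, which give bounds only.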
